A study of Homo sapiens with 72 samples.

Results

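The GADD45 family and GDF15 are stress-response genes. They were followed here in IMR-90, an early-passage strain of fibroblasts from human lung, in cells hit by α-particles and in their unhit neighbours. The members were all array probes other than control spots whose gene name was GADD45A, GADD45B, GADD45G or GDF15. This gave 5 probes for 4 genes, of 41000 probes on the array. All 5 probes were well above background on all 72 arrays and were among the 25246 probes tested.

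The control cells were mock-irradiated. Irradiated cells, on a thin Mylar base, received 0.5 Gy of α-particles. Bystander cells lay in the same dish on thicker Mylar that stopped the particles, in one continuous cell layer with the irradiated cells. RNA was taken at 6 times from 0.5 h to 24 h (with 1, 2, 4 and 6 h between) in 4 experiments, so that each of the 18 groups held 4 arrays, 1 from each experiment. Within an experiment the irradiated, bystander and control samples came from 1 pool of cells and were handled in parallel, so ratios were taken within experiments. The irradiated and bystander ratios of an experiment share its control array. All cells were of 1 strain, so the spread is that between cultures. Since RNA came from whole cultures, fewer cells expressing a gene and less RNA per cell cannot be told apart.

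The GADD45 proteins are small, acidic stress sensors without enzymatic activity of their own. They bind partners such as PCNA, the p21 protein, the CDK1 and cyclin B1 complex and the kinase MAP3K4, through which they act on cell cycle arrest, repair and the p38 and JNK pathways. GADD45A is a classic p53 target, GADD45B and GADD45G respond to growth factors and other stresses, and GDF15 is a secreted, divergent TGF-β family ligand that is induced by p53 and by the integrated stress response.

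Promoter sequence was at hand for GADD45B, GADD45G and GDF15 and is shown so that the letters before each start can be read beside the values that follow. Each line gives the 250 bases before the start of the gene, 5′ to 3′ on the plus strand, from RefSeq on GRCh38.p14. Capitals mark every match, on either strand, to the TATA box letters TATAA, the box CCAAT, the E-box CACGTG, the AP-1 letters TGANTCA, the CRE letters TGACGTCA or the GC box GGGCGG.
GADD45B, chr19:2475877-2476126: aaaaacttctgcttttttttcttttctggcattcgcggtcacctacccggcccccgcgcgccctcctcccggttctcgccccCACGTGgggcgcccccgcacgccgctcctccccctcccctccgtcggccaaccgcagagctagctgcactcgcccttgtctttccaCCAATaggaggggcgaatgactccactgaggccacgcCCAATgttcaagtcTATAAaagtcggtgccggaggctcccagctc
GADD45G, chr9:89604762-89605011: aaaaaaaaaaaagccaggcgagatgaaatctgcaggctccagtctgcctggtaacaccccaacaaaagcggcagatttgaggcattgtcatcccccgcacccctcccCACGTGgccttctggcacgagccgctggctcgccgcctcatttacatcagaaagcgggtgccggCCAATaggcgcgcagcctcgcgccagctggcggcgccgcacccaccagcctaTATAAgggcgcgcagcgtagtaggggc
GDF15, chr19:18385908-18386157: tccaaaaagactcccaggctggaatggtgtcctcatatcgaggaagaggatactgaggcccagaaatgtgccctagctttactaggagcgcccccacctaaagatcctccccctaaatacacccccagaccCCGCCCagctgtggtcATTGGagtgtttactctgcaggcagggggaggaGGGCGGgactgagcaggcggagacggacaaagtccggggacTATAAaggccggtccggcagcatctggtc

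All 3 windows held TATAA, at 31, 27 and 29 bases before the start of GADD45B, GADD45G and GDF15. TATAA was found in 18.9% of the 35116 promoter windows of this length in the table. CCAAT was read in the plus direction in GADD45B and GADD45G and on the other strand in GDF15, and was present in 32.0% of all windows. CACGTG occurred in GADD45B and GADD45G, against 6.3% of all windows, and GGGCGG in GDF15, against 42.6%. The letters TGANTCA (6.6% of windows) and TGACGTCA (1.6%) were in none of the 3. These matches describe the letters and are not evidence of binding.

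The genes themselves lie at chr1:67685201-67688334 (GADD45A), chr19:2476127-2478257 (GADD45B), chr9:89605012-89606555 (GADD45G) and chr19:18386158-18389176 (GDF15) in the same assembly. The array measured GADD45B with 2 probes of 60 bases, which followed each other closely (Pearson r = 0.92 over the 72 arrays after the mean of the 3 arrays of each time and experiment was taken off), and the other genes with 1 probe each.

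For 6 of the 72 arrays the deposited sources disagreed on the experiment number. At 0.5 h the columns of the authors' value table numbered 3 matched the scanner output numbered 4 and the reverse, in control, irradiated and bystander cells alike (r of at least 0.9993 with the other number, 0.939 to 0.975 with their own). The other 66 columns matched their own scanner output. Numbers are given here as on the scanner output, and since all 3 treatments were exchanged together, the ratios within each experiment at 0.5 h, their means and their tests are the same under either numbering. Following experiments 3 and 4 from 0.5 h to later times depends on it, and so do the values without experiment 3 or 4 at 0.5 h, whose labels would swap, and in the tests over time, which would then leave out other arrays.

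Intensities were scaled so that all arrays had the same 75th percentile and are given as log2 values. GDF15 ranged from 11.91 to 18.36 and GADD45G, the gene nearest to background, from 4.83 to 10.36. GADD45A ranged from 11.16 to 14.38, and the GADD45B probes from 8.54 to 12.68 (A_23_P142506) and from 10.83 to 15.35 (A_24_P239606). The group with the lowest mean was control cells at 6 h for GADD45A, GADD45G and GDF15. The highest mean belonged to irradiated cells at 2 h for GADD45A, at 0.5 h for GADD45G and at 24 h for GDF15, and each of these rested on 1 or 2 experiments. Without experiment 3 the highest GDF15 mean was that of irradiated cells at 6 h (16.09, with 15.76 at 24 h). Without experiment 3 or 4 the highest GADD45A mean was that of irradiated cells at 4 h, and without experiment 4 the highest GADD45G mean was that of bystander cells at 0.5 h.

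**Figure D1:**
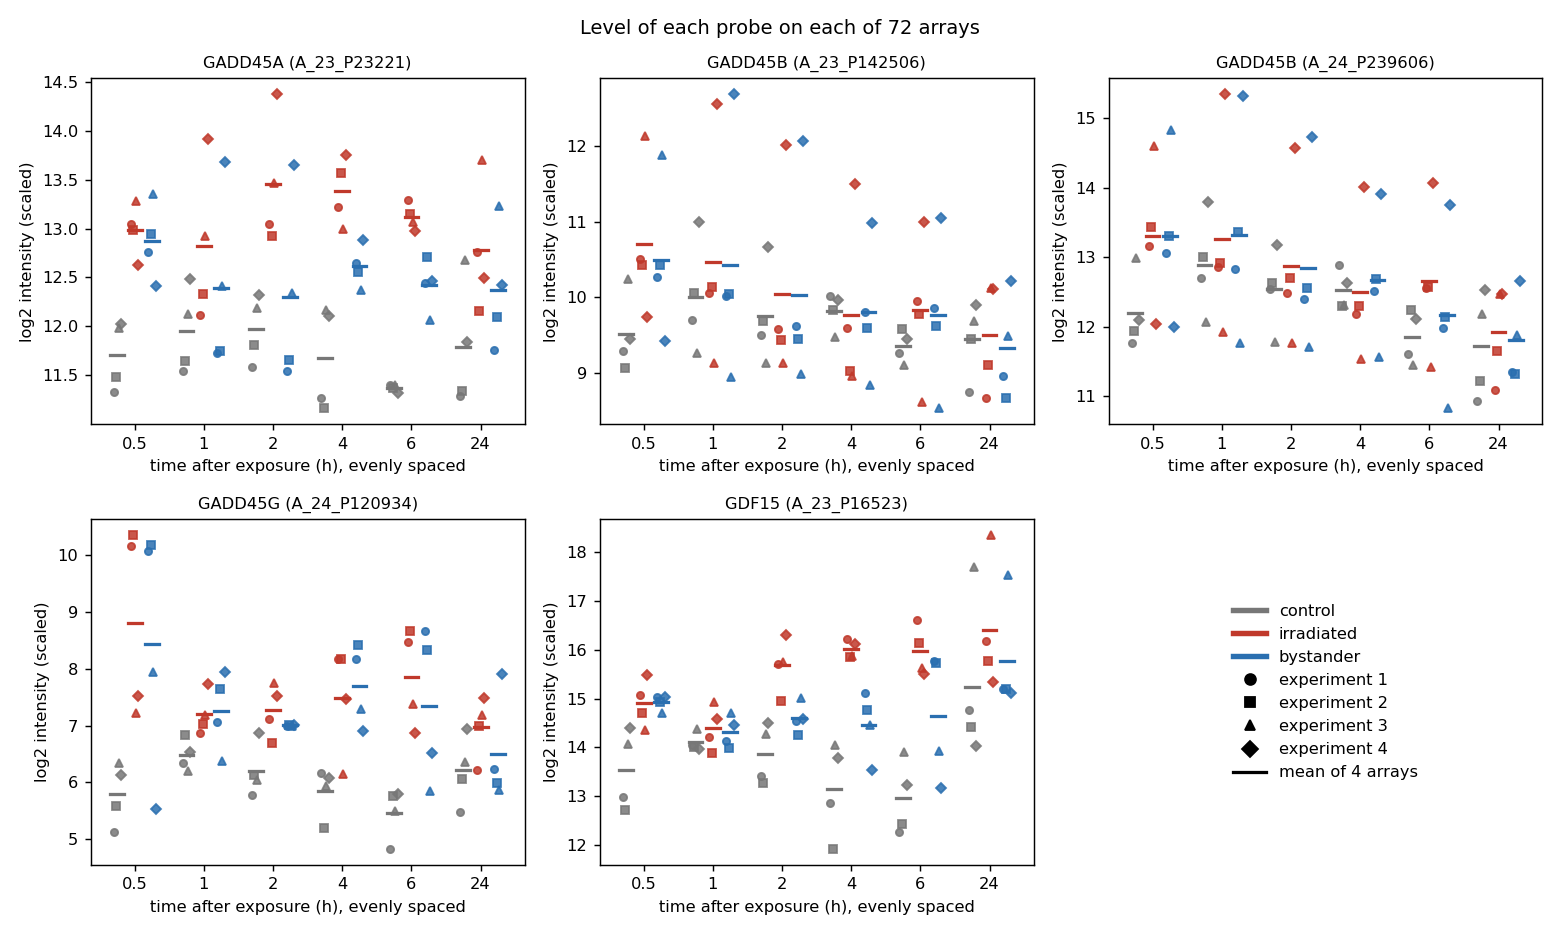
Log2 intensity (scaled to a common 75th percentile) of each probe on each of the 72 arrays, against time after exposure in hours on an evenly spaced axis. Colours mark control, irradiated and bystander cells, symbols the experiment as numbered on the scanner output, and bars the mean of 4 arrays. GADD45A control cells at 6 h lie between 11.32 and 11.40, below all irradiated and bystander cells of that time, while GADD45B in irradiated and bystander cells of experiment 4 stands above the other experiments from 1 to 6 h.

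After irradiation GADD45A and GDF15 passed as higher than control at 5 of 6 times, GADD45G at 3 and GADD45B at 1, by limma with the experiment as a block and Benjamini-Hochberg adjusted p under 0.10. At 0.5 h all 5 probes rose, against 9.94% of all probes called. At 1 h 0 members and 0% of all probes were called, although 26.9% of all probes and 3 of the 5 member probes had an unadjusted p under 0.05. At 2 h 3 member probes rose (5.78% of all probes called), at 4 h 2 (1%), at 6 h 3 (10.5%) and at 24 h 2 (0.174%). No member was called lower at any time. These counts were not compared between members or between times.

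GADD45A, which binds PCNA and CDK1 and halts cells before mitosis, was higher than control in 4 of 4 experiments at each of the 6 times. At 6 h its log2 intensity was 11.40, 11.37, 11.40 and 11.32 in the control cells of experiments 1 to 4 and 13.30, 13.14, 13.06 and 12.97 in the irradiated cells. The groups were far apart and both were tight. The paired log2 ratio was 1.75 ± 0.12 (SD, n = 4), a 3.36-fold increase (limma adjusted p = 0.00137). It passed under all 12 alternative settings.

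Earlier, at 0.5 h, GADD45A stood at 11.33, 11.48, 11.99 and 12.03 in control cells and at 13.05, 12.98, 13.29 and 12.63 in irradiated cells. The groups did not overlap, and the smallest of the 4 ratios was that of the arrays numbered 4. The mean ratio was 1.28 ± 0.49, or 2.43-fold (limma adjusted p = 0.0227). It was 0.87 ± 0.38 at 1 h, higher in 4 of 4 experiments but not past the threshold (adjusted p = 0.138, and 0.0923 with the slide as a further block). GADD45A was above the control of the same time by 1.48 ± 0.41 at 2 h (limma adjusted p = 0.0147), by 1.71 ± 0.67 at 4 h (adjusted p = 0.00806) and by 0.99 ± 0.35 at 24 h (adjusted p = 0.0975). At 24 h the control and irradiated groups overlapped, with experiment 3 high in control cells too (12.68, against 11.29 to 11.84 in the other experiments). The call was lost without experiment 2 at 0.5 h (limma adjusted p = 0.177), without experiment 1, 2 or 3 at 2 h (0.205, 0.132 and 0.118) and without experiment 1 at 4 h (0.14). The call was also lost with no block at 0.5 h (0.129) and 2 h (0.741) and with no filter on dim probes at 4 h (0.112). At 24 h it was kept under 3 of 12 alternatives. Leaving out any 1 experiment ended it (lowest adjusted p = 0.185), as did the normexp background (0.122), no filter on dim probes (0.175), no block (0.971) and the slide as a fixed block (0.179), and unscaled the ratio was 0.59 (limma adjusted p = 0.764).

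GADD45B, a rapidly induced activator of MAP3K4, rose at 0.5 h. The bright probe A_24_P239606 read 11.76, 11.95, 12.99 and 12.10 in control cells at 0.5 h and 13.17, 13.44, 14.60 and 12.04 in irradiated cells. The irradiated array was the higher one in experiments 1 to 3 and not in the arrays numbered 4, and the groups overlapped. The mean ratio was 1.11 ± 0.79 (limma adjusted p = 0.0567), and the probe A_23_P142506 gave 1.19 ± 0.66 (adjusted p = 0.0368). Both calls were lost when intensities were left unscaled (limma adjusted p = 0.163 and 0.169), without experiment 1 (0.145 and 0.106) and without experiment 2 (0.203 and 0.183), and that of A_24_P239606 also without experiment 3 (0.125).

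From 1 to 6 h experiment 4 had the largest GADD45B ratio, and neither probe passed. For A_24_P239606 at 1 h the ratios of experiments 1 to 4 were 0.16, -0.09, -0.14 and 1.55, at 2 h -0.06, 0.06, -0.01 and 1.38, and at 4 h -0.70, -0.00, -0.78 and 1.38. Experiment 4 was the high one each time, with the other experiments at or below 0.16. At 6 h the ratios were 0.95, 0.34, -0.02 and 1.96, so experiment 1 was above control too, and the mean was 0.81 ± 0.87 (limma adjusted p = 0.133, and 0.0976 without experiment 3). The probe A_23_P142506 had ratios of 1.34 to 1.55 in experiment 4 from 1 to 6 h. By 24 h both GADD45B probes were near control, at 0.05 ± 0.34 and 0.20 ± 0.21.

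GADD45G, which like its relatives blocks the CDK1 and cyclin B1 complex, had the largest early change and the widest spread. Its log2 intensity at 0.5 h was 5.13, 5.58, 6.35 and 6.13 in control cells and 10.16, 10.36, 7.21 and 7.53 in irradiated cells. All irradiated arrays lay above all controls, but those of experiments 1 and 2 stood far above those numbered 3 and 4. The ratios were 5.03, 4.78, 0.87 and 1.40, with a mean of 3.02 ± 2.19, an 8.09-fold increase (limma adjusted p = 0.0675). Without experiment 1 the mean was 2.35 (adjusted p = 0.154), and without experiment 2 it was 2.43 (adjusted p = 0.211). The call was also lost with no filter on dim probes (limma adjusted p = 0.174), no block (0.284) and the slide as a fixed block (0.135).

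At 6 h GADD45G rose from 4.83, 5.76, 5.50 and 5.80 in control cells to 8.47, 8.67, 7.38 and 6.88 in irradiated cells. The groups did not overlap, and the ratio was 2.38 ± 1.13, or 5.21-fold (limma adjusted p = 0.0329). It did not pass with no filter on dim probes (0.122) or no block (0.195). With the normexp background the GADD45G values at 6 h and 0.5 h still passed, with smaller ratios of 1.57 and 2.32. GADD45G rose by 1.06 ± 0.55 at 2 h (limma adjusted p = 0.0532), a call that was lost without experiment 1, 2 or 3 (0.243, 0.229 and 0.205). With the normexp background the ratio at 2 h was 0.76 and did not pass (limma adjusted p = 0.597). That call was also lost with no filter on dim probes (0.11), no block (0.583) and the slide as a fixed block (0.18). The ratio was 1.65 ± 1.16 at 4 h (adjusted p = 0.111, but 0.059 unscaled and 0.0792 without experiment 3) and 0.76 ± 0.16 at 24 h (adjusted p = 0.33), and neither passed, with 4 of 4 experiments higher at both times.

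GDF15, the secreted ligand, had the largest late response. Its log2 intensity at 4 h was 12.86, 11.91, 14.04 and 13.78 in control cells and 16.22, 15.86, 15.87 and 16.11 in irradiated cells. The irradiated cells reached nearly the same level in every experiment (16.02 ± 0.18), whereas the controls ran from 11.91 to 14.04. The ratio was larger in experiments 1 and 2 (3.37 and 3.94), which started low, than in experiments 3 and 4 (1.83 and 2.33). Its mean was 2.87 ± 0.96, a 7.30-fold increase (limma adjusted p = 0.0156), and it was 2.70 without experiment 1 (adjusted p = 0.146). With no filter on dim probes the call at 4 h was lost too (limma adjusted p = 0.183).

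GDF15 was 12.26, 12.42, 13.91 and 13.23 in control cells at 6 h and 16.62, 16.14, 15.63 and 15.50 in irradiated cells. Again all irradiated arrays lay above all controls, and the mean ratio was 3.02 ± 1.23, or 8.09-fold (limma adjusted p = 0.0229). With no filter on dim probes this ratio did not pass (limma adjusted p = 0.11). GDF15 also rose at 2 h, by 1.82 ± 0.35 (limma adjusted p = 0.00196). At 0.5 h it rose by 1.36 ± 0.84 (limma adjusted p = 0.0431), with the smallest ratio, 0.30, in the arrays numbered 3 and overlapping groups. This call was lost without experiment 1, 2 or 4 (0.125, 0.192 and 0.13). At 1 h the ratio was 0.30 ± 0.34 (adjusted p = 0.176).

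At 24 h GDF15 read 14.77, 14.42, 17.70 and 14.03 in control cells, 16.18, 15.76, 18.36 and 15.35 in irradiated cells and 15.21, 15.20, 17.53 and 15.12 in bystander cells. Experiment 3 stood far above the others in all 3 treatments, and irradiated cells of the other experiments were below their own values at 6 h. Within experiments GDF15 rose after irradiation by 1.18 ± 0.35 (limma adjusted p = 0.0948). The call was lost under 10 of 12 alternative settings, each leave-one-out fit among them (lowest adjusted p = 0.194), and all means stayed above 0.

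**Figure D2:**
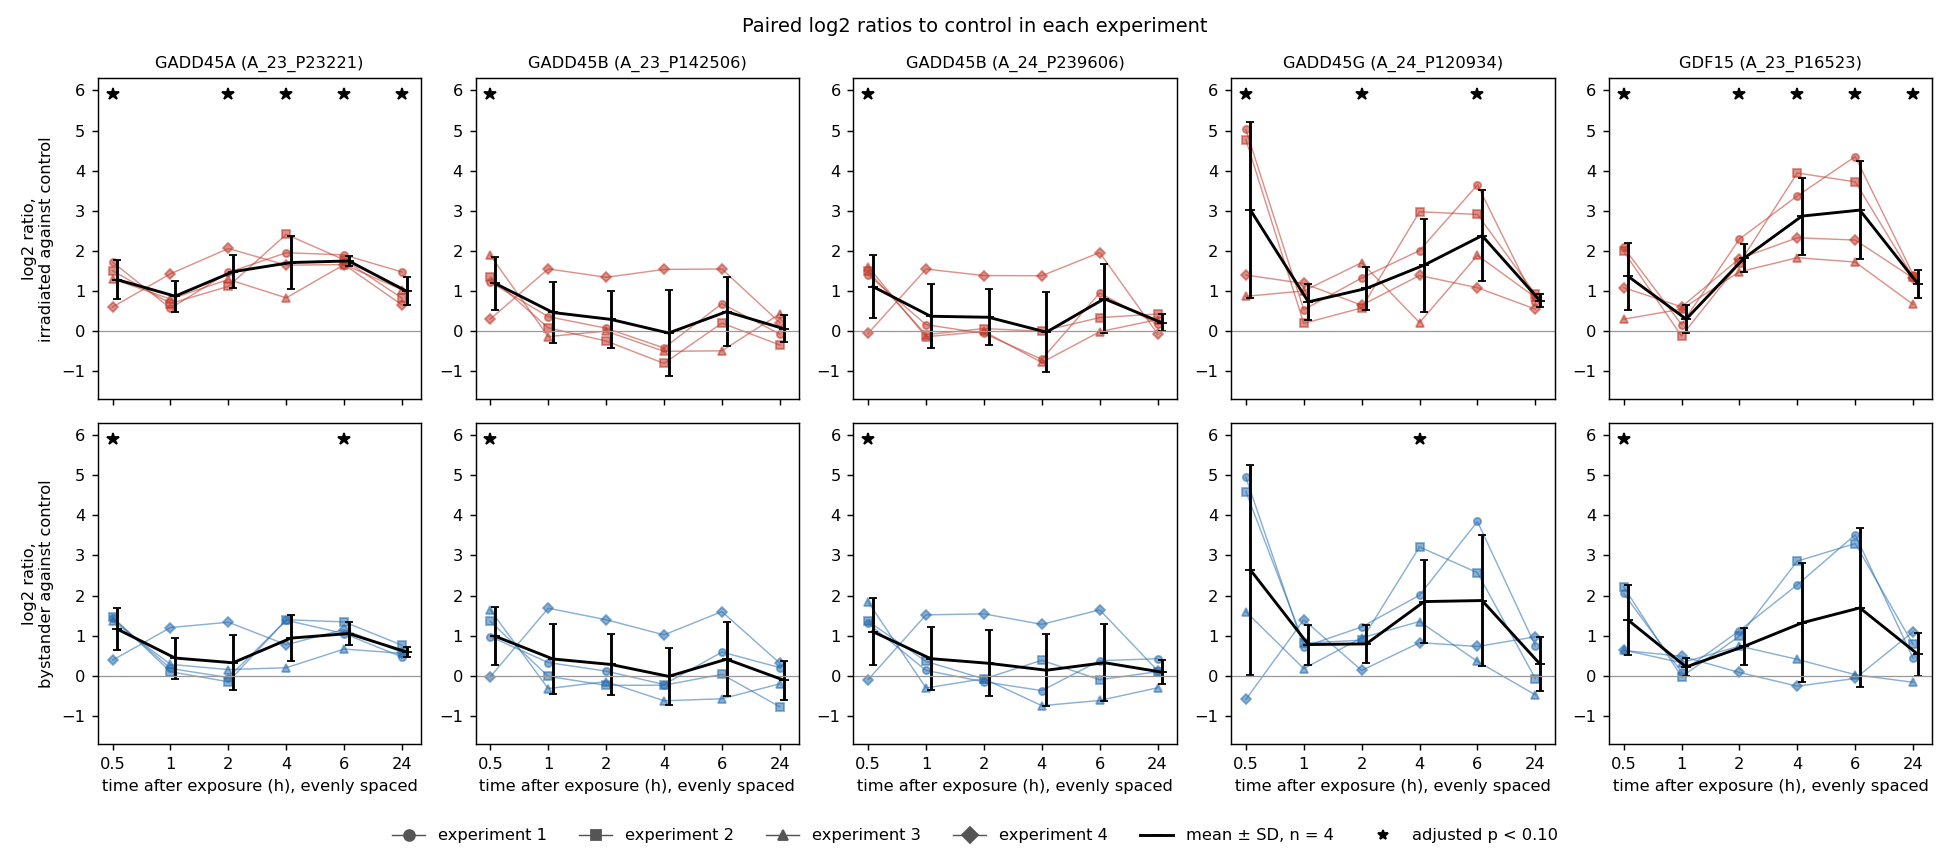
Paired log2 ratios to control of each probe in irradiated (top) and bystander cells (bottom) against hours after exposure, evenly spaced. Thin lines follow the experiments as numbered on the scanner output, black lines give the mean ± SD of 4 experiments, and asterisks mark limma adjusted p under 0.10. The mean of GDF15 after irradiation goes from 0.30 at 1 h to 3.02 at 6 h, and in bystander cells the experiments split at 4 and 6 h.

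In bystander cells, shielded from the particles, GADD45A, GADD45B and GDF15 rose at 0.5 h, GADD45G at 4 h and GADD45A again at 6 h. At 0.5 h 4 of the 5 member probes rose (7.08% of all probes called). GADD45A stood at 12.76, 12.94, 13.36 and 12.41 in bystander cells, above all 4 controls, and rose by 1.16 ± 0.52, or 2.24-fold (limma adjusted p = 0.0219). GDF15 stood at 15.04, 14.93, 14.70 and 15.02, again above all controls, and rose by 1.39 ± 0.87, or 2.61-fold (limma adjusted p = 0.0436). GADD45B rose by 0.99 ± 0.73 (A_23_P142506, limma adjusted p = 0.0604) and 1.10 ± 0.84 (A_24_P239606, adjusted p = 0.0636). All 4 of these calls were lost without experiment 1 (0.127 to 0.179) or without experiment 2 (0.162 to 0.216), and those of GADD45B also without experiment 3 (0.14 and 0.171). Unscaled, GADD45A (limma adjusted p = 0.112) and both GADD45B probes (0.388 and 0.234) did not pass.

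The bystander GADD45G values at 0.5 h were 10.08, 10.18, 7.94 and 5.54. Experiments 1 and 2 were as high as their irradiated partners, while the array numbered 4 was below its control. The ratio of 2.64 ± 2.63 missed the threshold (limma adjusted p = 0.101) and passed under 5 of 12 alternatives. In the authors' table, scaled in the same way, the same mean passed (adjusted p = 0.0943), and so did 3.71 without experiment 4 (adjusted p = 0.0653). Without experiment 1 the mean intensities were 7.89 in bystander and 6.02 in control cells, and without experiment 2 they were 7.85 and 5.87. GADD45G passed in neither of these fits.

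Thereafter few bystander values passed. At 1 h 0 members and 0% of all probes were called, with 2 member probes and 14.4% of all probes at an unadjusted p under 0.05. At 2 h 0 members (0.218% of all probes) were called, with 2 member probes and 15.5% of all probes at an unadjusted p under 0.05. Both of these members, GADD45G and GDF15, passed without experiment 4 (limma adjusted p = 0.0385 and 0.0181), when 12.3% of all probes were called. At 24 h 0 members and 0% of probes were called, again with 2 member probes and 11.2% of all probes at an unadjusted p under 0.05. GADD45G rose at 4 h (0.594% of all probes called), from 6.16, 5.20, 5.93 and 6.08 in controls to 8.17, 8.41, 7.29 and 6.90. These groups did not overlap, and the ratio was 1.85 ± 1.03 (limma adjusted p = 0.0994). The call was lost under 8 of 12 alternatives, each leave-one-out fit among them (lowest adjusted p = 0.116), and with the normexp background the ratio was 1.12. GADD45A rose at 6 h (0.289% of all probes called), to 12.45, 12.71, 12.07 and 12.47, all above its tight controls. The ratio was 1.05 ± 0.28, a 2.07-fold increase (limma adjusted p = 0.0325), and it did not pass unscaled (0.86, adjusted p = 0.181) or without experiment 1, 2 or 4 (0.136, 0.34 and 0.177).

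The late GDF15 values in bystander cells differed between experiments. At 6 h they were 15.78 and 15.72 in experiments 1 and 2 but 13.93 and 13.16 in experiments 3 and 4. The ratios were 3.52, 3.30, 0.02 and -0.07, far above control in experiments 1 and 2 and at control level in experiments 3 and 4. Their mean was 1.69 ± 1.98 (limma adjusted p = 0.245). The same division was seen at 4 h, with 2.27, 2.86, 0.41 and -0.26 and a mean of 1.32 ± 1.48 (adjusted p = 0.204). GADD45G followed it at 6 h, with 3.85, 2.57, 0.36 and 0.73. At both times the bystander arrays of experiments 3 and 4 shared a slide, and so did the control arrays of experiments 1 and 2. The part of the slides in this division was not tested, and these experiments were not compared as groups.

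Scaling changed 2 calls in bystander cells at 4 h, where the 75th percentile of bystander arrays was 0.46 ± 0.45 log2 units above that of controls. Without scaling, the ratios were 1.40 for GADD45A (limma adjusted p = 0.0165) and 1.78 for GDF15 (adjusted p = 0.0105), both past the threshold, where 14.8% of all probes were called and the median over all probes was 0.42. With scaling they were 0.94 (adjusted p = 0.136, and 0.0707 without experiment 3) and 1.32, and neither passed with all 4 experiments.

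Slides held 4 arrays each and did not always hold both arrays of a pair. In the pairs that shared a slide, the ratios after irradiation were 1.74 for GADD45A at 6 h, 2.51 and 2.78 for GDF15 at 4 and 6 h and 2.43 for GADD45G at 0.5 h (3 pairs each). At each of these times the pair on different slides was that of experiment 2. These ratios are therefore also the ones without experiment 2, and slide and experiment cannot be told apart in them. With the slide as a further block, 9 member values passed after irradiation and 1 in bystander cells, in place of 15 and 6. In that fit 1.23%, 1.75%, 0.123%, 2.36%, 9.16% and 0.0357% of all probes were called at the 6 times after irradiation, and 0.555% at 0.5 h in bystander cells, the time of its 1 member call. The 9 were 8 of the 15 and GADD45A at 1 h, and the values lost included all of the calls for GADD45B.

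Irradiated cells were then set against bystander cells of the same dish, which asks whether a direct hit adds to the response. No member passed at any of the 6 times in this limma comparison, in which 0% of all probes were called at 0.5 h, 0% at 1 h, 0.0436% at 2 h, 0.00792% at 4 h, 0% at 6 h and 0% at 24 h. An unadjusted p under 0.05 was found for 9 of the 30 member values, all for GADD45A or GDF15 and all higher after irradiation. They were 0 of 5 at 0.5 h, 1 at 1 h and 2 at each later time, and the shares of all probes with such a p were 2.15%, 4.94%, 1.12%, 1.3%, 1.52% and 0.396% at the 6 times.

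GDF15 gave the largest of these ratios. At 4 h its values of 15.12, 14.77, 14.45 and 13.52 in bystander cells lay below all irradiated values. The ratio was 1.55 ± 0.71, or 2.93-fold, with a 95% interval of 0.63 to 2.46 (limma adjusted p = 1). At 2 h it was 1.09 ± 0.48, with an interval of 0.68 to 1.49 (adjusted p = 0.247), and at 6 h 1.32 ± 0.86, with an interval of 0.15 to 2.50. All 4 experiments were higher after irradiation at 2, 4, 6 and 24 h. At 2 h the value passed under quantile normalisation (limma adjusted p = 0.0511) and with the normexp background (5.87e-05).

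GADD45A gave 1.16 ± 0.33 at 2 h, where bystander cells read 11.54, 11.65, 12.34 and 13.65 and irradiated cells 13.05, 12.92, 13.47 and 14.38. The groups overlapped through experiment 4, which was high in both, and every pair was higher after irradiation. Its 95% interval was 0.70 to 1.61 (limma adjusted p = 0.328). Without experiment 4 the ratio was 1.30 and passed (limma adjusted p = 0.00144), as it did with the normexp background (1.43e-05). At 0.5 h the difference was 0.12 ± 0.16, with an interval of -0.29 to 0.53, so a difference of the size seen at 2 h lay outside it.

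GADD45B and GADD45G showed no such direction. Their mean differences between irradiated and bystander cells ran from -0.17 to 0.48 for GADD45B and from -0.20 to 0.51 for GADD45G, with both signs among the experiments at all times but 6 h, when A_24_P239606 was higher in 4 of 4. The intervals for GADD45G were wide, from -1.38 to 2.14 at 0.5 h and from -0.54 to 1.55 at 6 h, so that a difference of 1 log2 unit in either direction at 0.5 h lay within them.

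**Figure D3:**
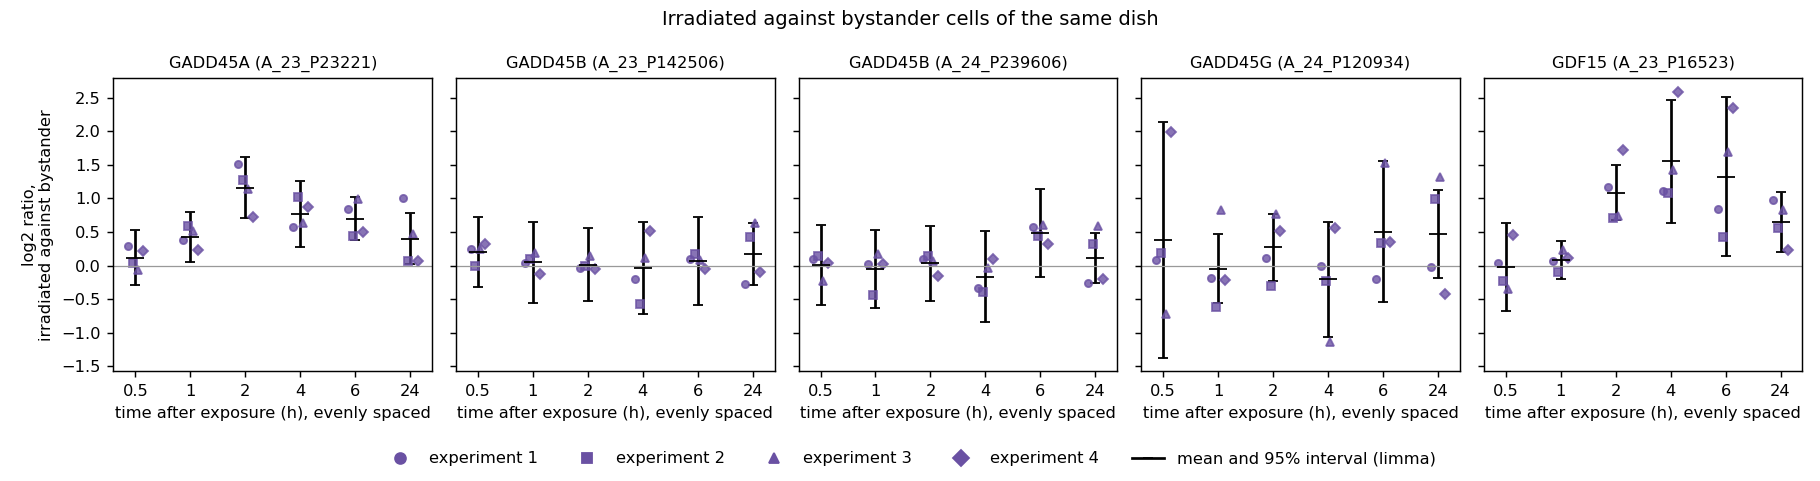
Log2 ratio of irradiated to bystander cells for each probe against hours after exposure, evenly spaced. Points are the 4 experiments as numbered on the scanner output, bars the mean with the 95% interval from limma. GDF15 lies above 0 in all 4 experiments at 2, 4, 6 and 24 h and GADD45A at 1, 2, 4, 6 and 24 h, whereas the GADD45B means stay between -0.17 and 0.48.

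Whether the ratio to control changed over the 6 times was tested with all 72 arrays in 1 fit. No member passed the F test in any of the 3 comparisons, in which 0.0792% of all probes were called for irradiated cells over control, 0.00396% for bystander cells over control and 0.0396% for irradiated over bystander cells. Of these 15 member tests 7 had an unadjusted p under 0.05 (3, 2 and 2 of 5), as had 6.08%, 2.76% and 0.638% of all probes. GDF15 after irradiation came nearest (unadjusted p = 8.83e-05, limma adjusted p = 0.106), followed by GADD45A (unadjusted p = 0.0127) and GADD45G (unadjusted p = 0.0196). The largest adjacent step was that of GADD45G from 0.5 to 1 h, -2.29 ± 0.76 (SE), and that of GDF15 from 6 to 24 h was -1.83 ± 0.56 (SE). Neither step passed (limma adjusted p = 1 and 0.557). Quantile normalisation brought 1 of the 15 F tests past the threshold, leaving out experiment 3 brought 1 and leaving out experiment 4 brought 6. The first 2 of these settings brought 1 probe for irradiated cells over control, where 0.0832% and 0.4% of all probes passed under the same setting. Without experiment 4 the 6 were 3 for irradiated and 3 for bystander cells over control, where 0.483% and 0.357% of all probes passed.

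The neighbours of these genes in their pathways were examined by lists chosen with earlier results of these data known, each gene by its brightest tested probe. Of the 99 calls of listed genes over the 3 comparisons, 10 were kept with no block, 20 without experiment 1 and 28 without experiment 2, and none changed direction. The list counts stand beside 9.94%, 0%, 5.78%, 1%, 10.5% and 0.174% of all probes called, in either direction, at the 6 times after irradiation, and 7.08%, 0%, 0.218%, 0.594%, 0.289% and 0% in bystander cells. Among 18 other p53 targets, 3 were higher after irradiation at 0.5 h (MDM2, PLK3 and RRM2B), 0 at 1 h, 10 at 2 h, 11 at 4 h, 9 at 6 h and 1 at 24 h (PLK3), with none lower. Their median ratio at 4 h was 1.08, beside -0.01 over all tested probes. In bystander cells 2 of the 18 rose at 0.5 h (PLK3 and RRM2B) and 1 at 2 h (PLK3), and at 1, 4, 6 and 24 h 0 of the 18 passed. Their median in bystander cells was 0.20 at 0.5 h and -0.04 at 4 h, beside 0 and -0.04 over all probes. The kinase gene PLK3 rose by 1.67 ± 0.52 at 6 h after irradiation (limma adjusted p = 0.00577), and FDXR, which encodes the mitochondrial ferredoxin reductase, by 1.56 ± 0.65 (adjusted p = 0.0101). BTG2, an antiproliferative gene, was higher in irradiated than in bystander cells at 2 h by 1.67 ± 0.25 (limma adjusted p = 0.0123), and 6 of the 18 passed that comparison, in which 0.0436% of all probes were called. These 6 calls were lost without experiment 1, 2 or 3, with no block and with the slide as a fixed block, where 0% of all probes passed. Unscaled, only 2 of all probes passed, and with no filter on dim probes also 2, so most of the 6 calls were lost there too.

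Of the other growth arrest and DNA damage genes, CDKN1A, DDB2 and PPP1R15A rose after irradiation. CDKN1A, which encodes p21 and is also a listed p53 target, rose by 2.22 ± 1.06 at 4 h after irradiation (limma adjusted p = 0.0156), and DDB2, a damage recognition gene, by 1.49 ± 0.73 at 6 h (adjusted p = 0.0186). PPP1R15A, also known as GADD34, a phosphatase subunit that ends the integrated stress response, rose at 0.5 h by 1.20 ± 0.41 in irradiated cells (limma adjusted p = 0.0227) and by 1.26 ± 0.38 in bystander cells (adjusted p = 0.0145). Of the 6 genes in this list, which shares CDKN1A and PPP1R15A with others, all 3 of these rose at 6 h after irradiation, with a list median of 0.64 beside 0.02 over all probes. The list medians at the 6 times after irradiation were 0.15, -0.20, 0.13, 0.52, 0.64 and 0.34.

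Of 10 integrated stress response targets, 2 rose at 0.5 h, 3 at 2 h and 4 at 6 h after irradiation, and 2 rose at 0.5 h and 2 at 2 h in bystander cells, with none lower. All probes were called at 9.94%, 5.78% and 10.5% at these times after irradiation and at 7.08% and 0.218% in bystander cells. The list medians at the 6 times after irradiation were 0.06, -0.22, 0.28, -0.05, 0.47 and 0.22. ATF3, a stress transcription factor that is also in the list of regulators, rose by 1.45 ± 0.65 at 0.5 h (limma adjusted p = 0.04), by 1.47 ± 0.89 at 2 h (adjusted p = 0.0435) and by 1.33 ± 0.44 at 6 h (adjusted p = 0.0114). PPP1R15A rose at the same 3 times, CHAC1, a glutathione-degrading enzyme gene, at 2 h and by 0.90 ± 0.68 at 6 h (limma adjusted p = 0.0887), and HERPUD1 by 0.60 ± 0.51 at 6 h (adjusted p = 0.093). Of the 15 listed regulators of GADD45 genes or GDF15, 2 rose (ATF3 and BRCA1) and 3 fell (RELA, FOXO3 and SMAD3) at 6 h after irradiation, with a median of -0.10. BRCA1, a repair gene, rose by 0.94 ± 0.39 at 2 h (limma adjusted p = 0.0503). In bystander cells NFKB1, an NF-κB subunit gene, rose by 0.96 ± 0.56 at 4 h (limma adjusted p = 0.0776), and SMAD3, which carries TGF-β signals, was lower at 0.5 h (-0.64 ± 0.20, adjusted p = 0.029).

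The GADD45 partners and effectors included calls in both directions. Of these 14 partners and effectors, 3 rose at 2 h after irradiation (CDK1, MAP2K3 and TDG), and at 6 h 2 rose and 1 fell, with list medians of 0.25 and 0.29, where 5.78% and 10.5% of all probes were called. In bystander cells the list medians at 2 and 6 h were 0.225 and 0.3, with 1 and 0 genes called higher, where 0.218% and 0.289% of all probes were called. PCNA, the sliding clamp, rose by 0.91 ± 0.25 at 6 h (limma adjusted p = 0.0479), MAP2K3, a kinase upstream of p38, rose by 1.15 ± 0.81 (adjusted p = 0.0575), and the related MAP2K6 was lower (-1.24 ± 1.00, adjusted p = 0.0786). CDK1, the mitotic kinase, rose by 0.73 ± 0.43 at 2 h (limma adjusted p = 0.0906). CCNB1, cyclin B1, was lower in bystander cells at 0.5 h (-0.46 ± 0.22, limma adjusted p = 0.073).

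On the GDF15 side, the receptor gene GFRAL was well above background on 0% of the arrays and its co-receptor RET on 45.8%, and neither was tested. Of the 3 tested genes listed for the receptor side and processing, 2 were lower at 6 h after irradiation, namely FURIN (-0.67 ± 0.44, limma adjusted p = 0.0837) and MMP14 (-1.18 ± 0.85, adjusted p = 0.0576). Among 10 tested TGF-β family ligands, 2 rose and 1 fell at 6 h after irradiation, and the list median was -0.06. BMP2, a bone morphogenetic protein, rose by 2.33 ± 1.26 at 6 h (limma adjusted p = 0.026), and INHBA, the activin A subunit, by 1.79 ± 0.89 at 4 h after irradiation (adjusted p = 0.0216) and by 1.42 ± 0.72 in bystander cells (adjusted p = 0.0785). TGFB3 was lower at 6 h after irradiation (-1.25 ± 1.04, limma adjusted p = 0.0578). BMP4 was lower at 0.5 h, both after irradiation (-1.20 ± 0.42, limma adjusted p = 0.0262) and in bystander cells (-1.23 ± 0.58, adjusted p = 0.0223).

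**Figure D4:**
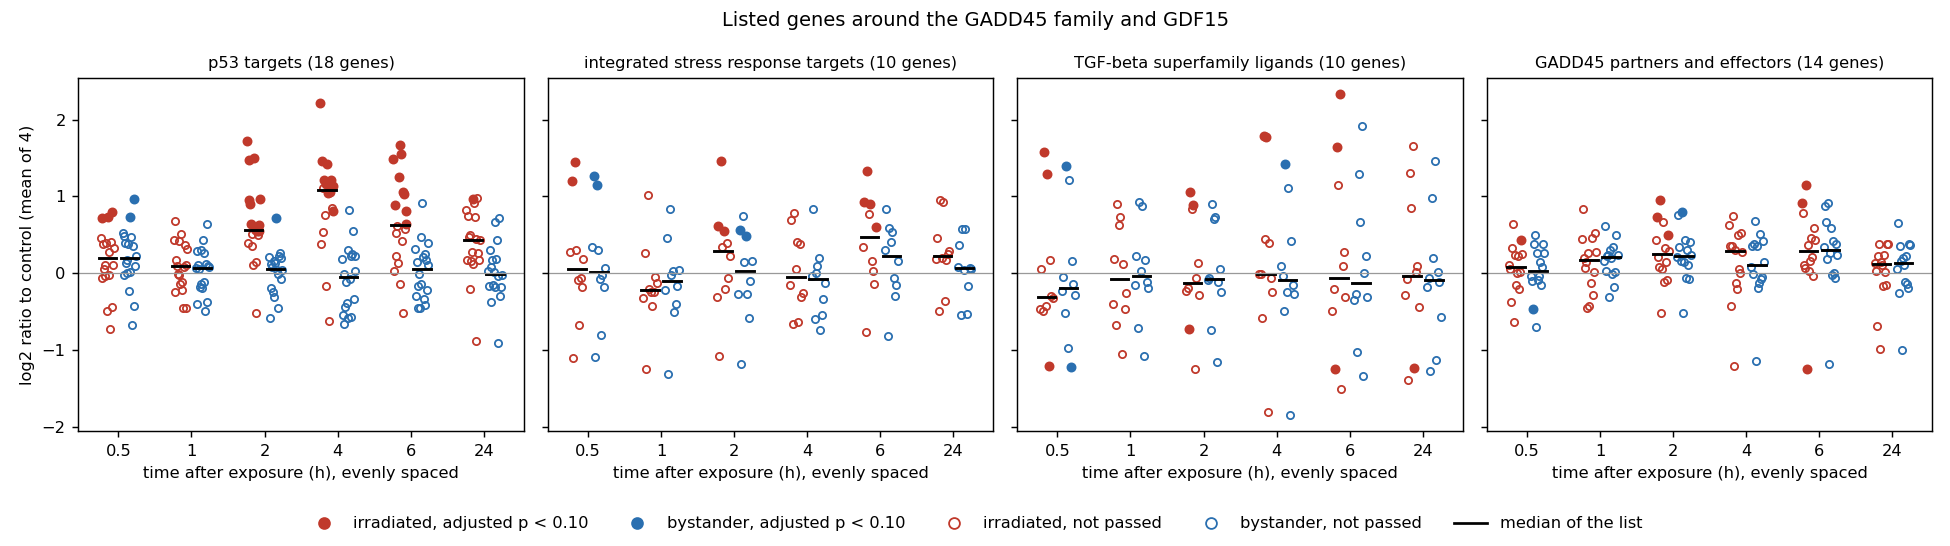
Mean log2 ratio to control (n = 4) of each listed gene against hours after exposure, evenly spaced, in irradiated (red) and bystander cells (blue). Filled points passed limma adjusted p under 0.10, open points did not, and bars are list medians. The median of the 18 p53 targets reaches 1.08 at 4 h after irradiation and -0.04 in bystander cells. Medians of the 14 GADD45 partners lie between 0.08 and 0.29 after irradiation and between 0.02 and 0.3 in bystander cells.

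All 9 fibroblast markers, among them COL1A1, COL1A2 and DCN, were well above background on every array. Of 11 markers of epithelial, endothelial and blood cells, CDH1, KRT5, PECAM1, CDH5, PTPRC, EPCAM and HBB were detected on too few arrays for testing (EPCAM on 61.1% and HBB on 84.7% of arrays, the other 5 on 1.39% to 16.7%), and SFTPC, VWF, CD14 and CD3E had a probe above background on all arrays. None of these 4 was called in any comparison. Among the fibroblast markers THY1 was lower at 0.5 h after irradiation (-1.07 ± 0.74, limma adjusted p = 0.0449) and in bystander cells (-1.10 ± 0.58, adjusted p = 0.046), with PDGFRB lower in bystander cells too (-0.75 ± 0.69, adjusted p = 0.0998), the time at which most member probes rose. PDGFRB was also lower at 2 h (-0.61 ± 0.50, limma adjusted p = 0.0983) and 6 h after irradiation (-0.94 ± 0.49, adjusted p = 0.0335), when GADD45A, GADD45G and GDF15 rose, and the medians of the 9 markers at the 6 times were -0.37, -0.33, -0.19, -0.40, -0.21 and -0.53 after irradiation and -0.42, -0.38, -0.24, -0.41, -0.20 and -0.62 in bystander cells, against -0.06 to 0.02 over all probes. The part of these 2 genes, and of the marker medians, in the members' results was not tested.

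Genes whose pattern over the 72 arrays was most like that of each member were ranked by Pearson correlation after the mean of the 3 arrays of each time and experiment was taken off, with no test, since arrays of one treatment share that treatment. GADD45A ran closest to PLK3 (r = 0.928), GDNF, a neurotrophic factor gene (0.921), BLOC1S2 (0.918), the gene named MGC5370 in the files (0.914) and the kinase gene DYRK3 (0.879). Of these, MGC5370, PLK3 and GDNF were also among the closest to GDF15, which ran with TNFRSF10A, a death receptor gene (r = 0.881), MGC5370 (0.881), PLK3 (0.869), GADD45A itself (0.862) and GDNF (0.86).

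The 5 genes nearest to GADD45G were HSPA1A (r = 0.917), DNAJA4 (0.905), LAMB3, a laminin subunit gene (0.905), ANXA10 (0.904) and CRYAB (0.899), of which HSPA1A, DNAJA4 and CRYAB encode chaperones or a co-chaperone of the heat shock response. GADD45B lay nearest to PELO (r = 0.874), SNAI1, a transcriptional repressor gene (0.866), the immediate early gene IER2 (0.833), GABPB1 (0.832) and SNX5 (0.82). Between members, GADD45G correlated with GDF15 at 0.796 and with GADD45A at 0.749, and GADD45B (A_24_P239606) with GDF15 at 0.353.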

How the data were processed

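Agilent one-colour arrays were scanned and read by the authors with Feature Extraction 9.1.3.1, and the deposited processed signal is a background-subtracted intensity. The authors did not normalise between arrays, and their deposited value table holds log2 values of the same signal. Here arrays were scaled to a common 75th percentile (its log2 was 9.19 to 11.2 before), a floor of 1 was set, log2 was taken and spots of a probe were averaged. Spots flagged as not uniform were left out of these averages. A probe was tested when at most 10% of the 72 arrays had no spot of it that was both uniform and well above background. Fits used limma 3.58.1 in R 4.3.3 at each time with experiment as a block (6 residual degrees of freedom), Benjamini-Hochberg adjustment over 25246 probes and a threshold of 0.1. The 6 times were fitted together with 36 residual degrees of freedom. The pairing comes from the methods: same-numbered samples deviated together, with a correlation over 0.1 in 10 to 12 of 12 pairs at each time. The fits were tested on simulated data. Alternatives were unscaled, quantile and normexp values, no filter, no block, slide as a fixed or random block, the authors' table and leaving out each experiment. The members and lists were chosen with earlier results of these data known. Named were all member probes, listed genes that passed by size of change (up to 4 a list), and the 5 genes most correlated with each member; genes named only to complete a count were chosen after their values were seen. The number of arrays limits the precision.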

Additional observations from a re-analysis of the deposited data

Results flagged for a closer look

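In 90 groups of 4 arrays, 3 held an array far from the other 3 by Dixon's criterion, which chance alone meets in about 1 of 20 groups. The GADD45B probe A_23_P142506 read 12.01 in irradiated cells of experiment 4 at 2 h, while the other experiments lay between 9.13 and 9.58. GDF15 read 14.38 in control cells of experiment 3 at 1 h, while the others lay between 13.98 and 14.04. GDF15 read 17.53 in bystander cells of experiment 3 at 24 h, while the others lay between 15.12 and 15.21.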

How the results depend on the processing

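Of 30 member values in each comparison, 15 passed after irradiation, 6 in bystander cells and 0 between irradiated and bystander cells, and no called value changed direction under any of the 12 alternatives. After irradiation 4 passed with no filter on dim probes, 4 with no replicate block, 9 with the slide as a fixed block and 5 to 12 when 1 experiment was left out. In bystander cells the counts were 1, 0, 1 and 0 to 7. Between irradiated and bystander cells 1 passed with quantile normalisation, 2 with the normexp background and 0 to 1 when 1 experiment was left out. Of the 15 tests over time 0 passed, against 1 with quantile normalisation and 0 to 6 when 1 experiment was left out. The fit without the replicate block, which ignores the pairing, lost 11 irradiated and 6 bystander calls. Of 99 calls of listed genes 89 were lost with no replicate block, 57 unscaled, 58 with no filter on dim probes, 53 with the slide as a fixed block and 37 to 79 when 1 experiment was left out, and 0 to 12 under the other settings, with 0 reversed. Over all probes, calls after irradiation numbered 2509, 0, 1460, 253, 2654 and 44 at the 6 times and ran from 0 to 3012, 0 to 443, 2 to 6906, 21 to 596, 48 to 4437 and 0 to 77 over the alternatives. The lowest of these came without experiment 2 at 0.5 h, without experiment 1 at 4 h and with no replicate block at 2 and 6 h, and the highest at 2, 6 and 24 h came unscaled. In bystander cells the calls numbered 1787, 0, 55, 150, 73 and 0 and ran from 0 to 2143 at 0.5 h (0 without experiment 2), 0 to 3116 at 2 h (3116 without experiment 4), 0 to 3727 at 4 h (3727 unscaled), 0 to 234 at 6 h and 0 to 26 at 24 h. Between irradiated and bystander cells they ran from 0 to 19 at 2 h and 0 to 23 at 4 h, beside 11 and 2. The cause of these changes was not tested. With 4 arrays a group, differences of the size of the wider GADD45G intervals could not be resolved.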
